A study of Mus musculus with 24 samples.

Results

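The interleukin-6 (IL-6) family was followed in mouse ovarian cancer cells as 9 genes, taken by symbol from the 25229 genes of the count table: the ligands Il6, Lif and Il11, the receptor chains Il6st, Lifr, Osmr and Il6ra, the signal transducer Stat3 and the feedback inhibitor Socs3. All 9 were in the table. RNA was measured in ID8 P53 KO cells, an ovarian cancer cell line of the mouse in which the gene for p53 was knocked out, so that all groups, controls included, shared this genotype. The cells were kept for 6 days with DMSO (the vehicle), with cisplatin at 750 nM, with AU-15330 at 2.5 µM, or with cisplatin and AU-15330 together (the combination). Cisplatin is a platinum drug that crosslinks DNA, and AU-15330 (a PROTAC) recruits the cell's own machinery to break down SMARCA4 and SMARCA2, the ATPases of the SWI/SNF chromatin remodeller. Each of the 4 groups held 6 libraries, 24 in all. The study's methods give another cisplatin concentration for these cells than the labels. The labels and methods used here do not state that libraries of a group came from separate cultures, so p-values measure the spread between these libraries, which may be technical.

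Cytokines of the IL-6 family signal through receptors that share the chain gp130, encoded by Il6st. IL-6 and IL-11 first bind their own receptors, encoded by Il6ra and Il11ra1, whereas LIF and oncostatin M use the chains encoded by Lifr and Osmr beside gp130. Janus kinases on gp130 phosphorylate STAT3, which enters the nucleus and activates genes that include Socs3, whose product binds gp130 and the kinases and shuts the signal down. IL-6 and LIF are secreted by many senescent and tumour cells, and transcripts alone do not show whether the pathway was active.

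The total count per library ran from 17592588 to 25260009 (median 21863798.5). Values are given as counts per 1000000 reads (CPM) after TMM scaling, and 3 counts in a library corresponded to 0.120 to 0.186 CPM. The Trp53 transcript was present in all libraries, at 18.7 to 42.9 CPM, and with no wild-type library it does not test the genotype. The mRNAs of Smarca4 and Smarca2 do not check the drug, which acts on the proteins. Of 9 mesothelial and ovarian surface markers 8 were in the table and all 8 were tested; none was at 0 throughout a group. Of 6 leukocyte markers 0 passed the filter on low counts, and their summed level was at most 0.495 CPM in any library.

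All 3 ligand genes are shown with the DNA before an annotated start. They were chosen because each transcript was higher with the combination than with DMSO and each gene had a window with the AP-1 letters TGACTCA. Socs3 is shown for the letters TTCNNNGAA that STAT proteins are known to bind. RefSeq promoter windows (build GRCm38.p6, 250 bases before to 50 after a start) were found for all 9 members, 11 windows in all, and both strands were searched. Each line gives the match in capitals with up to 40 bases on either side, 5′ to 3′.
Il6, chr5:30012864-30012911, plus strand: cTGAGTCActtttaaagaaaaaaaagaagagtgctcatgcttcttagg
Lif, chr11:4257318-4257386, plus strand: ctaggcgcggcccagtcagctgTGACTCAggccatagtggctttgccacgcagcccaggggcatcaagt
Il11, chr7:4778193-4778279, minus strand: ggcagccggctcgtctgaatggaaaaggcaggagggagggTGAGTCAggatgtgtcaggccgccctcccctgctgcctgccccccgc
Socs3, chr11:117969472-117969560, minus strand: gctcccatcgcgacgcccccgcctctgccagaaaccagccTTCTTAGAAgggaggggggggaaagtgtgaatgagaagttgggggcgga
The match began 249 bases before the start in Il6, 228 in Lif, 98 in Il11 (its second window) and 154 in Socs3. The starts used for these Il11 and Socs3 windows lie inside the gene spans given in the next paragraph. The AP-1 letters were thus in 3 of 11 member windows, against 5.2% of all 32851 windows of this length, and the STAT letters were in 1 of 11, against 8.3%. The windows of Osmr and Stat3, members also higher with the combination than with DMSO, did not hold the AP-1 letters. Nor did the first window of Il11. A match describes the letters only, and no test was made.

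The members lay on 6 chromosomes (build GRCm38.p6). Lif (chr11:4257568-4272514, plus strand), Stat3 (chr11:100886806-100939594, minus) and Socs3 (chr11:117966079-117970336, minus) were on the same chromosome. Osmr (chr15:6813568-6874968, minus) and Lifr (chr15:7090610-7197489, plus) were neighbours in the family, 216 kb apart on opposite strands. The others were Il6 (chr5:30013114-30019975, plus), Il11 (chr7:4772373-4782907, minus), Il6st (chr13:112464070-112506860, plus) and Il6ra (chr3:89869324-89913196, minus). The end of Stat3 overlaps that of Stat5a on the other strand by 72 bases, and the antisense gene Gm42809 overlaps Il6ra by 281 bases. The use of strand in counting was not given in the sources used here, so reads from these stretches may have been assigned to either gene.

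AU-15330 changed more of the family than cisplatin did, as it did over all 12941 tested genes (9497 called, beside 6689 with cisplatin). Of the 8 members that passed the filter, cisplatin alone raised 1 (Lif) and lowered 1 (Socs3), where 26.0% of all 12941 tested genes rose and 25.7% fell. AU-15330 alone raised 2 (Il11 and Stat3) and lowered the other 6, where 36.2% of all tested genes rose and 37.2% fell. Against cisplatin the combination raised 5 and lowered 3, namely Il6st, Lifr and Il6ra (35.4% and 32.7% of all tested genes). Against AU-15330 it raised 3 (Lif, Lifr and Osmr) and lowered 1 (Stat3), where 22.2% and 19.5% of all tested genes rose and fell. Against DMSO it raised 4 (Lif, Il11, Osmr and Stat3) and lowered 3 (Lifr, Il6ra and Socs3), where 36.8% rose and 36.5% fell. The median size of the members' log2 fold change was 0.11 for cisplatin and 1.11 for AU-15330, beside 0.28 and 0.53 over all tested genes. These comparisons share groups and are not independent of each other. The counts of the drugs were not tested against each other.

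**Figure D1:**
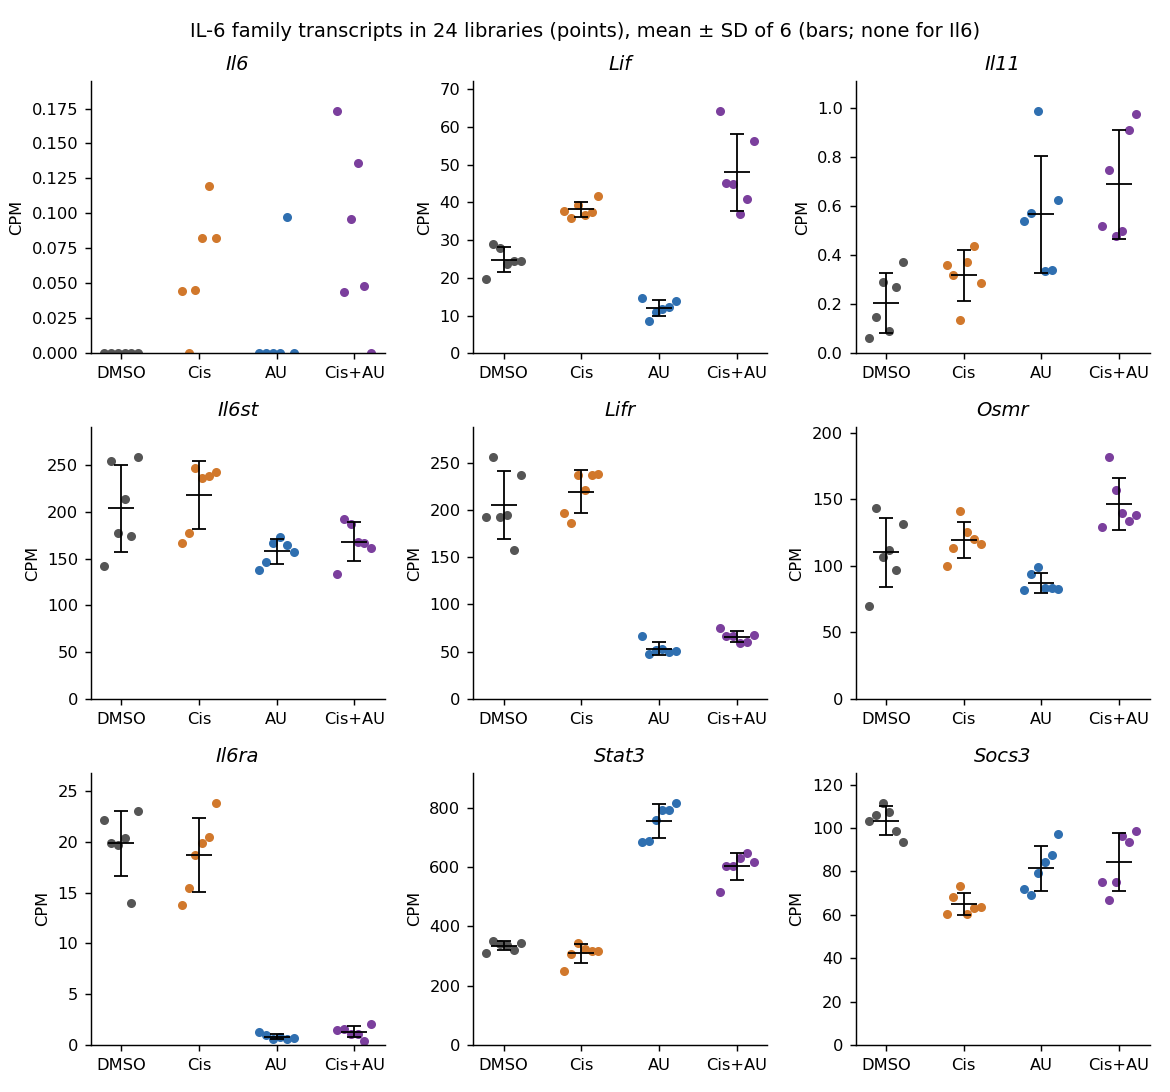
CPM of each member (vertical axes, from 0) in each of 24 libraries by treatment; points are libraries, and bars are the mean ± SD of 6 libraries, drawn for all members but Il6. Il6ra and Lifr lie far lower in both groups with AU-15330 (AU, Cis+AU), Stat3 lies higher in both, and Lif is lowest with AU-15330 alone and highest with the combination.

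The ligands differed in level and in their response. Lif encodes leukemia inhibitory factor. Its lowest, median and highest values were 19.7, 24.4 and 29.1 CPM with DMSO. With cisplatin they were 35.8, 37.6 and 41.5 CPM, with AU-15330 8.50, 12.1 and 14.7 CPM, and with the combination 36.8, 45.0 and 64.1 CPM. Every library with AU-15330 alone was below every DMSO library, and every library with either cisplatin treatment was above them. Cisplatin raised Lif (log2 fold change 0.62 ± 0.12, SE; adjusted p = 0.000182), whereas AU-15330 lowered it (-1.05 ± 0.13, adjusted p = 5.58e-08). In cells that had AU-15330, cisplatin raised it by 2.00 ± 0.13, a 4.00-fold difference (adjusted p = 2.00e-11). The combination exceeded DMSO by 0.95 ± 0.12 (adjusted p = 1.71e-07). The effect of AU-15330 on Lif thus turned from a fall without cisplatin to 0.33 ± 0.12 with it (adjusted p = 0.0186), and the difference of the 2 effects was 1.38 ± 0.18 (interaction, adjusted p = 1.48e-06; 17.9% of tested genes had a higher and 15.8% a lower interaction). The groups with cisplatin overlapped, and the rise of 0.33 was no longer called without the libraries numbered 1 (0.19, adjusted p = 0.132) or 6 (0.30, adjusted p = 0.0568).

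Il11 encodes interleukin-11 and was near the limit of detection, at 1 to 24 reads per library. Its level was 0.205 ± 0.124 CPM with DMSO, 0.319 ± 0.103 with cisplatin, 0.567 ± 0.239 with AU-15330 and 0.688 ± 0.221 with the combination (SD, n = 6 libraries). It rose with AU-15330 by 1.44 ± 0.37 (adjusted p = 0.00125), and in cells with cisplatin by 1.09 ± 0.33 (adjusted p = 0.00496). The DMSO and AU-15330 libraries overlapped, whereas every library of the combination was above every library with cisplatin alone. Cisplatin gave 0.61 ± 0.40 without AU-15330 (adjusted p = 0.209) and 0.26 ± 0.31 with it (adjusted p = 0.520), with 95% intervals of -0.21 to 1.44 and -0.37 to 0.89.

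Il6 itself was almost undetected, and it did not pass the filter. It had 0 reads in all 6 DMSO libraries. A bound of 3 counts over the group, which is narrower than the two-sided interval given below, corresponds to 0.0250 CPM. Cisplatin gave 9 reads in all, at most 3 in a library and 0 in 1 library; AU-15330 gave 2 reads, both in 1 library; the combination gave 11 reads, at most 4 in a library and 0 in 1 library. The pooled level was 0.0643 CPM with cisplatin (exact 95% Poisson interval 0.0294 to 0.122) and 0.0839 with the combination (0.0419 to 0.150). The same two-sided interval for the 0 reads of DMSO ended at 0.0308, above the lower end for cisplatin and below that for the combination, and no fold against DMSO is given. An exact two-sided permutation test of mean CPM gave p = 0.0152 for each (0.0379 after Benjamini-Hochberg adjustment over 5 comparisons; the smallest possible p was 0.00216). AU-15330 alone did not differ detectably from DMSO at this depth (exact permutation p = 1.0). The combination had 5.45 times the pooled Il6 CPM of AU-15330 alone, with a 95% counting interval of 1.19 to 50.6 and an exact permutation p of 0.0866. It had 1.30 times those of cisplatin (interval 0.491 to 3.56, exact permutation p = 0.511). These intervals cover counting error only.

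The receptor chains that changed most were Il6ra and Lifr, and both fell with AU-15330. Il6ra, the chain that binds IL-6, ran from 13.9 to 23.1 CPM with DMSO (median 20.1) and from 13.7 to 23.8 with cisplatin (median 19.3). It ran from 0.576 to 1.26 CPM with AU-15330 (median 0.721) and from 0.431 to 2.04 with the combination (median 1.29). No library with AU-15330 came near the libraries without it. Il6ra was 24.2-fold lower with AU-15330 than with DMSO (log2 fold change -4.60 ± 0.23, adjusted p = 1.23e-15) and 14.5-fold lower with the combination than with cisplatin (-3.86 ± 0.22, adjusted p = 1.71e-14). Between the groups with AU-15330 the combination was 0.65 ± 0.28 higher, which did not pass the threshold (adjusted p = 0.0588, 95% interval 0.09 to 1.22); it passed without the libraries numbered 5 (0.74, adjusted p = 0.0168) and in DESeq2 (0.64, adjusted p = 0.0246).

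Lifr, the chain that binds LIF, ran from 157 to 256 CPM with DMSO (median 194), from 186 to 238 with cisplatin (median 229), from 47.4 to 67.0 with AU-15330 (median 51.4) and from 59.8 to 75.4 with the combination (median 66.6). Again the libraries with and without AU-15330 did not overlap. Lifr was 3.85-fold lower with AU-15330 than with DMSO (-1.95 ± 0.10, adjusted p = 5.51e-15) and 3.32-fold lower with the combination than with cisplatin (-1.73 ± 0.10, adjusted p = 7.07e-14). Among cells with AU-15330, cisplatin raised it by 0.31 ± 0.10 (adjusted p = 0.0165), a call lost without the libraries numbered 3 (0.30, adjusted p = 0.0516) or 6 (0.28, adjusted p = 0.0607).

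The summed level of the mesothelial and ovarian surface markers moved the same way as these receptor chains. It ran from 3514.5 to 5312 CPM with DMSO and from 4190.5 to 4866 with cisplatin, but from 1018 to 1150.1 with AU-15330 and from 1223 to 1403.5 with the combination. The summed level of 4 fibroblast genes ran from 227 to 641 CPM with DMSO, 365 to 449 with cisplatin, 111 to 174 with AU-15330 and 194 to 294 with the combination; all 4 were tested. That sum followed Col1a1, which averaged 368 CPM with DMSO and 70.5 with AU-15330, whereas the other 3 averaged more with AU-15330 than with DMSO: Dcn 58.9 against 31.5 CPM, Pdgfra 1.70 against 0.923, and Lum 0.517, with 0 reads in all 6 DMSO libraries. Of 3 endothelial markers 1 was tested, and their sum ran from 2.87 to 4.28 CPM with DMSO, 8.24 to 12.5 with cisplatin, 0.261 to 0.715 with AU-15330 and 0.483 to 1.10 with the combination. Their part in the fall of the receptor chains was not tested, and fewer cells of a type cannot be told apart from less RNA per cell in these bulk libraries.

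Osmr, the oncostatin M receptor chain, changed far less and not in a single direction. It ran from 70.0 to 143 CPM with DMSO (median 110), from 99.5 to 141 with cisplatin (median 118), from 81.7 to 99.2 with AU-15330 (median 83.3) and from 129 to 182 with the combination (median 139). The clearest difference was between the groups with AU-15330, where cisplatin raised it by 0.75 ± 0.12 (adjusted p = 2.21e-05) and the libraries did not overlap. The combination also exceeded DMSO, by 0.41 ± 0.12 (adjusted p = 0.00370), with overlapping libraries. AU-15330 alone lowered Osmr (-0.34 ± 0.12, adjusted p = 0.0157) and in cells with cisplatin raised it (0.30 ± 0.12, adjusted p = 0.0323), with an interaction of 0.63 ± 0.17 (adjusted p = 0.00589). Neither of the 2 single effects was firm. The fall was -0.20 with total counts in place of TMM (adjusted p = 0.124) and missed the threshold without the libraries numbered 2 (-0.27, adjusted p = 0.0525), 4 (-0.31, 0.0581) or 6 (-0.26, 0.0990). The rise missed it in DESeq2 (0.27, adjusted p = 0.0513), with its size factors in edgeR (0.0542), with no filter (0.0543), and without the libraries numbered 2 (0.21, adjusted p = 0.128), 4 (0.0551), 5 (0.0512) or 6 (0.0593).

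Il6st, which encodes gp130, was the steadiest of the receptor chains. It ran from 143 to 259 CPM with DMSO (median 196), from 166 to 247 with cisplatin (median 237), from 138 to 173 with AU-15330 (median 161) and from 134 to 192 with the combination (median 167), and all groups overlapped. It fell by 0.37 ± 0.13 with AU-15330 (adjusted p = 0.0120) and by 0.37 ± 0.13 in cells with cisplatin (adjusted p = 0.0112). The first of these was -0.24 with total counts (adjusted p = 0.0857) and missed the threshold without the libraries numbered 2 (-0.27, adjusted p = 0.0710) or 6 (-0.28, adjusted p = 0.0738). For the combination against DMSO the value was -0.28 ± 0.13 (adjusted p = 0.0530), which passed in DESeq2 (adjusted p = 0.0339), with DESeq2 size factors (0.0379), with no filter (0.0186), with at least 1 CPM in 6 libraries (0.0483) and without the libraries numbered 1 (-0.35, 0.00331) or 3 (-0.34, 0.0378).

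Lifr fell far more than Osmr with AU-15330, and their order was turned over. Per kilobase of annotated exon, a scale that allows levels of different genes to be set side by side, the receptor chains of DMSO-treated cells were ordered Lifr (19.03 ± 3.30 CPM per kb), Il6st (18.3 ± 4.22), Osmr (9.09 ± 2.14) and Il6ra (2.30 ± 0.369; SD, n = 6 libraries). Lifr and Il6st did not differ there beyond their spread. With cisplatin the order was the same. With AU-15330 it was Il6st (14.2 ± 1.19), Osmr (7.21 ± 0.612), Lifr (4.94 ± 0.651) and Il6ra (0.0940 ± 0.0315), and with the combination Il6st (15.2 ± 1.86), Osmr (12.1 ± 1.61), Lifr (6.13 ± 0.529) and Il6ra (0.148 ± 0.0628). The ratio of Lifr to Osmr reads per kb was 1.83 to 3.09 with DMSO (median 2.01) and 1.85 to 2.30 with cisplatin (median 2.09). It was 0.567 to 0.923 with AU-15330 (median 0.684) and 0.410 to 0.655 with the combination (median 0.494). An exact two-sided permutation test of the log2 ratio gave p = 0.00216, the smallest possible, for AU-15330 against DMSO, for the combination against cisplatin and for the combination against DMSO (0.00361 after Benjamini-Hochberg adjustment over 5 comparisons). The ratio was lower with the combination than with AU-15330 alone (exact permutation p = 0.0108, adjusted 0.0135). For cisplatin against DMSO p was 0.872. This ratio was chosen after the values of both genes were seen.

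**Figure D2:**
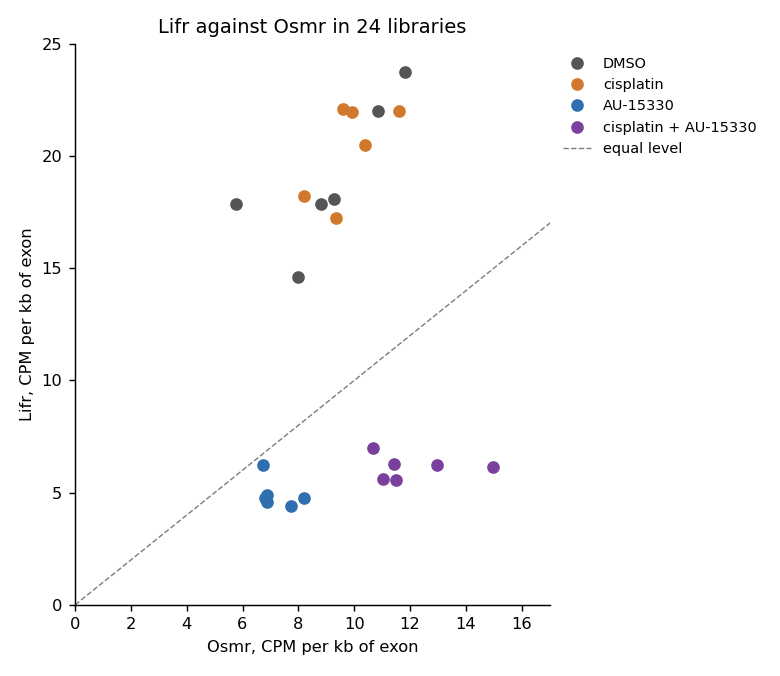
Lifr against Osmr in each of 24 libraries, both in CPM per kb of exon on linear axes; each point is a library, coloured by treatment, and the dashed line marks equal levels. Libraries without AU-15330 lie above the line, with ratios of 1.83 to 3.09, and libraries with it lie below, with ratios of 0.410 to 0.923.

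Stat3 and its inhibitor Socs3 went opposite ways with AU-15330 alone, and both rose with AU-15330 in cells with cisplatin. Stat3 ran from 312 to 352 CPM with DMSO (median 339), from 250 to 345 with cisplatin (median 317), from 685 to 816 with AU-15330 (median 776) and from 515 to 646 with the combination (median 610). All libraries with AU-15330 were above all libraries without it, and the combination lay below AU-15330 alone with no overlap. Stat3 rose 2.26-fold with AU-15330 (log2 fold change 1.18 ± 0.07, adjusted p = 1.02e-13) and 1.95-fold in cells with cisplatin (0.96 ± 0.07, adjusted p = 7.70e-12). Cisplatin lowered it in cells with AU-15330 (-0.33 ± 0.07, adjusted p = 0.000692), and gave -0.11 ± 0.07 without it (adjusted p = 0.200). The difference between these effects was -0.21 ± 0.10 (adjusted p = 0.105). It passed the threshold in DESeq2 (-0.25, adjusted p = 0.0400), with total counts (-0.28, 0.0307) and without the libraries numbered 1 (-0.26, 0.0125).

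Socs3 ran from 93.4 to 112 CPM with DMSO (median 105), from 60.4 to 73.4 with cisplatin (median 63.5), from 69.2 to 97.1 with AU-15330 (median 81.9) and from 67.0 to 98.4 with the combination (median 84.4). Only cisplatin and DMSO, of the 5 pairs of groups compared, did not overlap. Cisplatin lowered Socs3 (-0.67 ± 0.09, adjusted p = 1.18e-06), and in cells with AU-15330 it gave 0.05 ± 0.09 (adjusted p = 0.721, 95% interval -0.14 to 0.24). AU-15330 lowered it (-0.34 ± 0.09, adjusted p = 0.00170) but raised it in cells with cisplatin (0.37 ± 0.09, adjusted p = 0.000843). The interaction was 0.72 ± 0.13 (adjusted p = 0.000142). With the combination, the libraries numbered 4 to 6 were at 93.4 to 98.4 CPM and those numbered 1 to 3 at 67.0 to 75.3. With AU-15330 alone, the same numbers gave 84.6 to 97.1 and 69.2 to 79.2 CPM. The combination was 0.30 below DMSO (log2 fold change -0.30 ± 0.09, adjusted p = 0.00552), and with total counts this was -0.15 and missed the threshold (adjusted p = 0.127). Per kb of exon, Stat3 and Socs3 were at similar levels with DMSO (35.1 ± 1.58 and 35.8 ± 2.26 CPM per kb). With AU-15330 they were at 79.3 ± 5.96 and 28.2 ± 3.58, and with the combination at 63.2 ± 4.81 and 29.1 ± 4.61 (SD, n = 6 libraries).

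**Figure D3:**
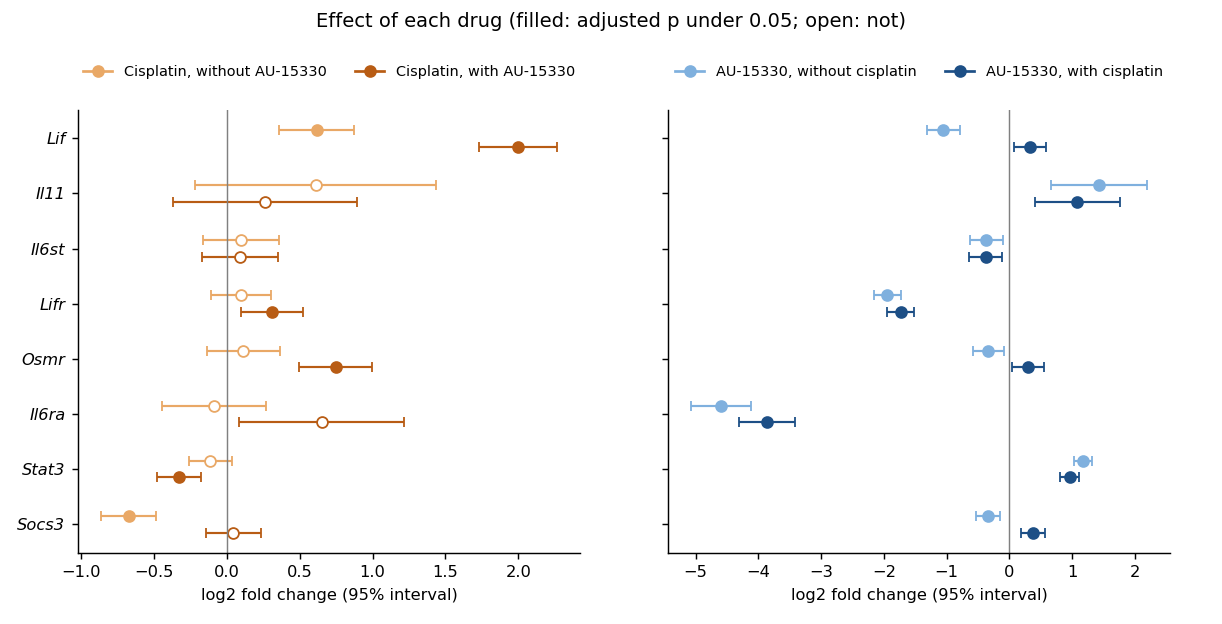
Log2 fold change (horizontal axes) of the 8 tested members for cisplatin, without and with AU-15330 (left), and for AU-15330, without and with cisplatin (right); bars are 95% intervals and filled points have an adjusted p under 0.05. The effect of AU-15330 changed sign with cisplatin for Lif (-1.05 and 0.33), Osmr (-0.34 and 0.30) and Socs3 (-0.34 and 0.37), and stayed on 1 side for Il6ra, Lifr, Stat3, Il11 and Il6st. Both effects on Osmr and the rise of Lif lost their calls in several alternative settings.

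Partners of the members in the pathway were taken from a list of 32 genes, 23 of which were tested. Cisplatin raised 4 of them, Cntf, Stat2 and Socs1 included, and lowered 2 (Il11ra1 and Socs2), where 26.0% of all tested genes rose and 25.7% fell. The 4 became 7 with total counts in place of TMM and with no filter on low counts. AU-15330 raised 10 and lowered 7, where 36.2% rose and 37.2% fell, and in cells with cisplatin it raised 10 and lowered 10, where 35.4% rose and 32.7% fell. Against AU-15330 the combination raised 3 (Cntf, Clcf1 and Ptpn1) and lowered 11 (22.2% and 19.5% of all tested genes), and against DMSO it raised 12 and lowered 10 (36.8% and 36.5%). The 3 became 1 without the libraries numbered 1, 2, 5 or 6. The median size of the log2 fold change was 0.07 for cisplatin and 0.67 for AU-15330, beside 0.28 and 0.53 over all tested genes.

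Among the transcription factor genes of the list, Stat2, a mediator of interferon signals, averaged 42.1 CPM with DMSO, 250 with cisplatin, 178 with AU-15330 and 163 with the combination. It rose by 2.57 with cisplatin and by 2.08 with AU-15330. Stat5a fell with AU-15330 in both settings (-0.39 and, with cisplatin, -0.73), as did Stat5b (-0.67 and -0.65); these similar genes may share reads. Among the kinases, Jak1 rose by 0.42 with AU-15330, and by 0.26 in cells with cisplatin. Jak2 gave -0.11 with AU-15330 (adjusted p = 0.216) and fell by 0.36 in cells with cisplatin (adjusted p = 0.000192), and the combination was also below AU-15330 (-0.22, adjusted p = 0.0273). Tyk2 gave -0.01 with AU-15330 (adjusted p = 0.934).

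Of the other receptor chains, Il11ra1, which binds IL-11, was tested. It rose by 0.72 with AU-15330 (adjusted p = 1.11e-06) and fell by 0.35 with cisplatin (adjusted p = 0.00846), and reads may be divided between it and its near-identical copy Il11ra2, listed at 0 in every library. Cntfr, Il27ra and Il31ra did not pass the filter. Neither did the ligand genes Osm, which encodes the oncostatin M that OSMR binds, Ctf2, Il27, Ebi3 and Il31. Ctf1, which encodes cardiotrophin-1, a ligand that uses Lifr, rose by 1.48 with AU-15330, and by 1.16 in cells with cisplatin. Clcf1, a related ligand, fell by 0.67, and by 0.45 in cells with cisplatin.

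The inhibitors diverged. Socs1, a relative of Socs3 that blocks Janus kinases, rose by 1.58 with cisplatin and by 2.46 with AU-15330. With both drugs it was 0.39 above cisplatin alone and fell by 0.49 against AU-15330 alone (adjusted p = 0.00471). Socs2 fell in each of the 4 comparisons that change 1 drug, by 0.79 with cisplatin and by 0.73 with AU-15330. Cish, another gene of the SOCS family, fell by 1.77 with AU-15330 and by 2.15 in cells with cisplatin. Pias3, which encodes an inhibitor of STAT3, rose by 0.67 with AU-15330, and Ptpn1, a phosphatase of Janus kinases, fell by 0.76.

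Genes known as STAT3 targets in other cells went down more often than up with AU-15330, while Stat3 mRNA went up. Of 18 listed genes 16 were tested. AU-15330 raised 3 (Timp1, Bcl3 and Junb) and lowered 13, where 36.2% of all tested genes rose and 37.2% fell. In cells with cisplatin it raised 2 (Timp1 and Bcl3) and lowered 12, where 35.4% rose and 32.7% fell. Cisplatin raised 5 (Bcl3, Pim1, Mcl1, Ccnd1 and Icam1) and lowered 6 (26.0% and 25.7% of all tested genes), and in cells with AU-15330 it raised 10 and lowered 2, Junb and Fos (22.2% and 19.5%). Against DMSO the combination raised 2 (Timp1 and Bcl3) and lowered 10 (36.8% and 36.5%). Junb, Hp, Cntf, Adam17 and Lcn2 fall outside the rule for named genes and are named after their values were seen. The same holds for the untested ligand genes Osm, Ctf2, Il27, Ebi3 and Il31. The median log2 fold change with AU-15330 was -1.23, beside -0.0030 over all tested genes. The summed level of the mesothelial and ovarian surface markers was lower with AU-15330 as well (median 1124 CPM, beside 3984.5 with DMSO), and its part in the fall of the targets was not tested. Many factors other than STAT3 control these genes, and no measure of STAT3 protein or its phosphorylation entered the data.

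Among the targets lowered by AU-15330 were Il4ra (-3.05), an interleukin-4 receptor chain, and Vegfa (-3.33), an angiogenic factor. Cebpd (-2.84) and Cebpb (-1.76), transcription factors of the acute phase response, fell as well, together with Ccnd1 (-1.81), which encodes cyclin D1. Cisplatin alone lowered Cebpd (-0.91) and Cebpb (-0.45) and raised Ccnd1 by 1.75, whereas added to AU-15330 it raised Cebpd by 1.08, Cebpb by 0.70 and Ccnd1 by 1.89. Icam1, an adhesion molecule, rose by 1.41 with cisplatin and fell by 1.09 with AU-15330, and Pim1, a kinase gene, rose by 0.93 and fell by 0.50. Fos fell in all 4 comparisons that change 1 drug, by 1.03 with cisplatin and by 0.57 with AU-15330. Those that rose included Timp1, an inhibitor of matrix proteases, which averaged 39.4 CPM with DMSO, 216 with AU-15330 and 374 with the combination, and Bcl3, a partner of NF-kB, which rose by 0.55 with AU-15330. Hp, which encodes the acute phase protein haptoglobin, averaged 60.5 CPM with DMSO, 63.7 with cisplatin, 0.115 with AU-15330 and 0.181 with the combination.

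**Figure D4:**
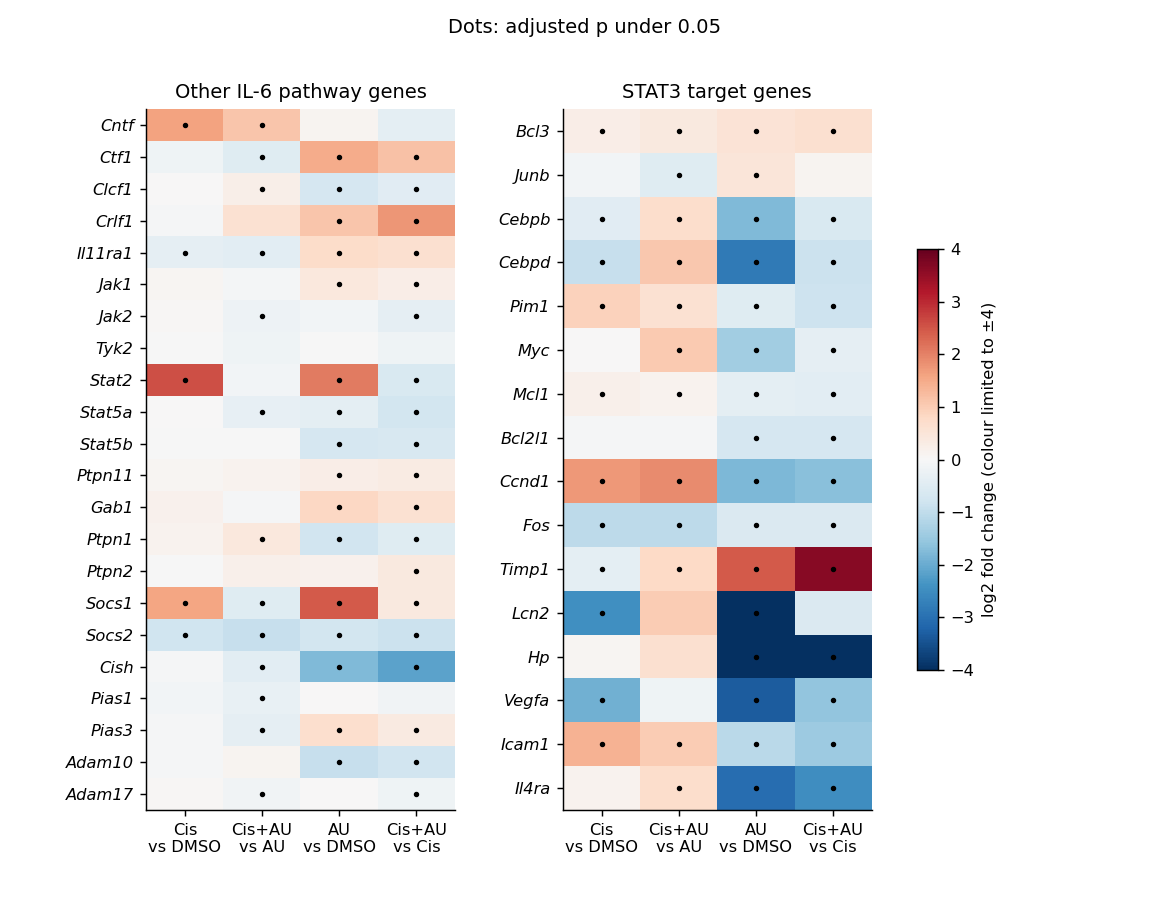
Log2 fold change (colour, limited to ±4) of 22 tested partner genes (left) and the 16 tested STAT3 target genes (right) in the 4 comparisons that change 1 drug; dots mark an adjusted p under 0.05. In the target panel the columns for AU-15330 are mostly blue, with 13 of 16 genes lower in the absence of cisplatin, and Timp1 stands out as higher.

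The genes closest in pattern were sought for the 5 tested members whose group means spanned more than 1 on the log2 scale, by the root mean square difference of centred log2 CPM over 24 libraries. For Il6ra these were Tgfa (0.346), which encodes a ligand of the EGF receptor, and Cxcl12 (0.368), a chemokine gene. For Lifr they were Fzd5 (0.140), a Wnt receptor gene, and Ildr2 (0.152). Stat3 was close to Scaper (0.116). Lif was closest to Rad18 (0.349), a ubiquitin ligase gene of DNA damage tolerance, and Tinf2 (0.361), a telomere protein gene. Il11 was closest to Itpripl1 (0.436) and Tnfrsf10b (0.439), a death receptor gene.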

How the data were processed

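RNA of 24 libraries was extracted with a column kit, enriched for polyadenylated RNA, made into strand-specific libraries and read single-end. Per the submitters' processing notes the authors used STAR 2.7.1a, DESeq2 1.36.0 and the genome mm10. The counting tool, its use of strand and its annotation are not given in the sources used here. The deposited values are the authors' raw read counts for each gene symbol, without normalization. Labels tied all 48 columns to libraries (0 unmatched), and counts of the 2 lanes were added (chi-square per degree of freedom 1.36 to 1.47 between lanes, at least 2.30 between replicates).

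Counts were scaled by TMM and tested in edgeR 4.0.16 (R 4.3.3) (quasi-likelihood F test; 1 fit of all libraries, 20 residual degrees of freedom). The filterByExpr filter (minimum count 10) kept 12941 genes. A call is a Benjamini-Hochberg adjusted p under 0.05 over these genes. Log2 CPM used a prior count of 2, and the SE is the log2 fold change divided by the square root of F. Scripts were tested on simulated data. Il6 and the ratio of Lifr to Osmr were tested by exact permutation of libraries (scipy 1.17.1). Exon lengths and positions are from the GENCODE and RefSeq annotation of GRCm38.p6, and 32 of 32 partner genes and 18 of 18 targets were found in the table.

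The members and lists were chosen with earlier results of these data known. All members are named. From the lists, genes called in at least 3 of the 4 comparisons that change 1 drug are named, with receptor partners, kinases and STAT genes, and for each member spanning over 1 on the log2 scale the 2 genes of most similar pattern. Some items that meet these rules are not reported here.

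Replicate numbers 1 to 6 recur in each group. Only for the combination and AU-15330, of the comparisons made, was r over 0.1 for every pair of same-numbered libraries (0.101 to 0.483), so there the numbers may pair the libraries. The libraries numbered 1 were best matched by each other's number in every pair of groups (r 0.217 to 0.483). Alternatives were DESeq2 1.42.0 and its size factors, total counts, other filters, a replicate block, fits of the compared groups alone, a required fold of 1.5, and leaving out each replicate number.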

Additional observations from a re-analysis of the deposited data

Results flagged for a closer look

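Among 35 groups of 6 libraries searched, 4 held a library whose gap to its nearest neighbour, divided by the range of the group, passed Dixon's limit at 95% confidence. Chance gives about 1 in 20. Il6 had reads in the AU-15330 library numbered 5 and none in the other libraries of that group (gap 1.0 of the range). With 0 in all the others, any read gives this gap, so for Il6 the limit was passed by construction and does not mark the library as distant. Lifr was at 67.0 CPM in the AU-15330 library numbered 1, and at 47.4 to 52.7 in the others (0.729). Stat3 was at 515 CPM in the combination library numbered 1, and at 602 to 646.0 in the others (0.665). Il6ra was at 13.9 CPM in the DMSO library numbered 5, and at 19.7 to 23.1 in the others (0.63).

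The effect of AU-15330 differed between cells with and without cisplatin by the interaction test of edgeR for the 17 genes given here. Values are the log2 fold change with cisplatin minus that without. Among the members they were 1.38 for Lif, 0.63 for Osmr and 0.72 for Socs3. Among the partner genes they were -2.69 for Stat2, -0.34 for Stat5a, -2.07 for Socs1, -0.31 for Pias3, -0.20 for Adam17 and 0.27 for Ptpn1. Among the STAT3 targets they were 3.49 for Lcn2, 1.98 for Cebpd, 1.76 for Vegfa, 1.17 for Timp1, 1.15 for Cebpb, 1.03 for Myc, 0.56 for Il4ra and -0.39 for Junb. That of Lcn2 (SE 0.82) rests on few reads, 6 to 122 in a DMSO library and 1 to 18 in a library of the other groups.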

How the results depend on the processing

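Of 656 values of single members under the alternatives, 601 kept direction and side of the threshold, 36 lost the threshold, 14 gained it and 5 turned direction. The values that turned were not called in any setting: Il6ra with cisplatin was 0.00734 without replicate 1 (range -0.20 to 0.00734), and the interaction of Il6st was 0.00585, 0.0251, 0.02446 and 0.06792 without replicates 1, 3, 4 and 5 (range -0.20 to 0.06792). Requiring a fold above 1.5 cut the counts by construction. For the members it left 0 called with cisplatin, 5 with AU-15330, 3 for the combination against cisplatin, 1 against AU-15330 and 1 interaction. For the partner genes it left 8 with AU-15330, 6 and 1 for the combination against cisplatin and AU-15330, 10 against DMSO and 3 interactions. For the targets it left 6 with cisplatin, 10 with AU-15330, and 7 and 5 for the combination against cisplatin and AU-15330. Over all genes it left 1789 of 6689 calls with cisplatin, 4657 of 9497 with AU-15330, 3803 of 8813, 842 of 5394 and 4683 of 9486 for the combination against cisplatin, AU-15330 and DMSO, and 926 of 4361 interactions. Leaving out a replicate number gave 4 to 7 interactions among the partner genes. Total counts in place of TMM shifted the median log2 fold change of all genes to 0.126 with AU-15330, 0.104 for the combination against cisplatin and 0.139 against DMSO. With them 3977 genes were higher and 2529 lower with cisplatin, beside 3360 and 3329 with TMM, and 1791 and 2506 interactions were higher and lower, beside 2313 and 2048. Il6 was called without the filter with cisplatin (adjusted p = 0.0159) and the combination (0.00489). With the replicate block, 2 member calls changed and both were gained, Il6st for the combination against DMSO (-0.26, adjusted p = 0.0221) and the interaction of Stat3 (-0.21, adjusted p = 0.0348). The block changed no call of a member for the combination against AU-15330. Over all genes it gave more calls in every comparison, such as 7354 with cisplatin and 5303 interactions. Over 36 pairs of same-numbered libraries, r ran from -0.133 to 0.483 and in 15 of the 36 the best match had the same number. Il11, Il6 and Lcn2 rest on few reads, which limits their precision. The cause of the changed calls was not tested.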
